A study of Mus musculus with 4 samples.

Results

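The open chromatin described here lies at the starts of long noncoding RNA genes, away from the promoters of protein-coding genes, and was found in both biological replicates of mouse acute myeloid leukemia (AML) cells. A member is a 150 bp DNase-seq peak of the replicate 1 list, on an autosome, that overlapped a replicate 2 peak by at least 1 bp. It also had to lie no farther than 1 kb from an annotated start of a lincRNA, antisense or processed_transcript gene, and farther than 1 kb from all starts of protein-coding genes, in GENCODE mouse release M21 on the assembly mm10. This gave 1384 members among 60372 shared autosomal peaks and 230627 unique autosomal peaks of replicate 1. Of the 4514 replicate 1 peaks that met the rule on position, 30.7% were shared, beside 26.2% of all replicate 1 autosomal peaks. Sharing is itself part of the rule, so nothing is read from those shares.

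In DNase-seq, nuclei are treated with DNase I, which cuts accessible DNA most readily, and the sequenced fragment ends pile up where chromatin is open. The study sequenced 4 libraries of C57BL/6J mouse AML cells, a cancer of immature myeloid blood cells, which the labels call differentiated in vitro. They comprised 2 biological replicates with 2 technical libraries each, and both replicates carry the same donor label. No treatment, time point or control is named, age is given as unknown and sex as not collected, and no source used here describes how the cells were made. Each replicate has 1 list of peaks, from its pooled libraries, so no value below has a replicate error and no difference between classes of peaks was tested against one. The lists were unequal, with 236754 unique peaks in replicate 1 and 67559 in replicate 2, and the depth of sequencing is unknown. "No peak" below means only that none is listed.

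Long noncoding RNAs are made by RNA polymerase II, and many are capped, spliced and kept in the nucleus. Their promoters range from CpG-rich ones that resemble the promoters of housekeeping genes to CpG-poor ones that resemble enhancers, and some of the transcripts serve mainly to carry small nucleolar RNAs (snoRNAs) or microRNAs in their introns. In myeloid cells the factors PU.1, C/EBP, RUNX and AP-1 bind many cell-type enhancers, while SP/KLF, NFY, NRF1 and ETS factors of the GABPA type bind many CpG-rich promoters, and CTCF binds insulators and loop anchors. A DNase peak shows that the DNA was accessible and does not measure RNA.

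The 12 windows that follow show the range of sequence at these starts. They are the strongest members of 11 genes named in the lists below, and the strongest member with a CTCF match, Snhg7os. Each is a 150 bp window of GRCm38.p6 (mm10), 5′ to 3′ on the strand of the noncoding gene, with matches to any of the 17 motifs searched in capitals. The first 3 are snoRNA hosts: Snhg8 at chr3:123508476-123508625 on the minus strand, Snhg15 at chr11:6528756-6528905 on the minus strand and Snhg20 at chr11:117076676-117076825 on the plus strand.
Snhg8: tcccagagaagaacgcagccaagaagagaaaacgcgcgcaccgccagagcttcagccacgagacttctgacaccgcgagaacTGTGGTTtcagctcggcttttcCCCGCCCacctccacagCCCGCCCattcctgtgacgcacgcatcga
Snhg15: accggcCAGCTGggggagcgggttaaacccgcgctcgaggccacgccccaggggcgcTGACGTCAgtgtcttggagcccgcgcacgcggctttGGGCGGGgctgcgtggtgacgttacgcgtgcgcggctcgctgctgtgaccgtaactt
Snhg20: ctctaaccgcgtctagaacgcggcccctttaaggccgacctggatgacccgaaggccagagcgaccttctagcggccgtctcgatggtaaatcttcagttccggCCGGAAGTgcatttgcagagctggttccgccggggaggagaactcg
The capitals in Snhg8 mark 1 RUNX and 2 KLF/SP matches, those in Snhg15 an E-box, a CRE and a KLF/SP match, and those in Snhg20 a generic ETS match.

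The second group holds genes of the blood and immune list and Mirt1: Mir142hg at chr11:87755516-87755665 on the plus strand, and Gm14005 (Morrbid) at chr2:128429316-128429465, Mirt1 at chr19:53464776-53464925 and Ptgs2os2 (lincRNA-Cox2) at chr1:150164956-150165105, all on the minus strand.
Mir142hg: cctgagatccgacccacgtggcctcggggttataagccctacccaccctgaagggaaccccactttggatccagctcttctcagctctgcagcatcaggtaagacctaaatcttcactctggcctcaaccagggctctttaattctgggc
Gm14005: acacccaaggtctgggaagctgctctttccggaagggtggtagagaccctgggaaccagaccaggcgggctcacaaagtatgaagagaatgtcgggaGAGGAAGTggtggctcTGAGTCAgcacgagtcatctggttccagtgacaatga
Mirt1: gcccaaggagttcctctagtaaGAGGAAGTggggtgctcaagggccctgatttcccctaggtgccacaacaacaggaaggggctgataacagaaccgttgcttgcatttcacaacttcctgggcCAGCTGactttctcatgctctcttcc
Ptgs2os2: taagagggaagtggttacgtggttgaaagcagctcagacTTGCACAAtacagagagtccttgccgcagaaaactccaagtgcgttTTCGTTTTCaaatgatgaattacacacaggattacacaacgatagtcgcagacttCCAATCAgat
The Mir142hg window held none of the 17 motifs. The capitals mark a PU.1-type ETS and an AP-1 match in Gm14005, a PU.1-type ETS and an E-box match in Mirt1, and C/EBP, IRF and NFY matches in Ptgs2os2. None of these 4 windows is CpG-dense by the rule given with the CpG results.

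The third group holds long noncoding RNAs known from many tissues, the microRNA host Dleu2 and the CTCF example, on the minus strand except for the last: Kcnq1ot1 at chr7:143296536-143296685, Malat1 at chr19:5803476-5803625, Crnde at chr8:92356096-92356245, Dleu2 at chr14:61682376-61682525 and Snhg7os at chr2:26640236-26640385 on the plus strand.
Kcnq1ot1: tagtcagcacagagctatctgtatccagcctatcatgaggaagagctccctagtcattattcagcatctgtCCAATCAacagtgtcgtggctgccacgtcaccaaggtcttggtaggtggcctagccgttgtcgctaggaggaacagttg
Malat1: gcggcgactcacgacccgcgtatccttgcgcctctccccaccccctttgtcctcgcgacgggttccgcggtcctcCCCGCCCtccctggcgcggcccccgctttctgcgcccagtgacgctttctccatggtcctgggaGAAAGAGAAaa
Crnde: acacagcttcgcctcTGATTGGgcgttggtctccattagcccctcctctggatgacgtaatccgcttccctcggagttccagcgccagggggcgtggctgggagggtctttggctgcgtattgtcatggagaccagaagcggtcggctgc
Dleu2: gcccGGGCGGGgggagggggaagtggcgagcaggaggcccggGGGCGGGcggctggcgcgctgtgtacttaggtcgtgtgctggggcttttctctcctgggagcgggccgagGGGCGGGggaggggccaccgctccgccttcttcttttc
Snhg7os: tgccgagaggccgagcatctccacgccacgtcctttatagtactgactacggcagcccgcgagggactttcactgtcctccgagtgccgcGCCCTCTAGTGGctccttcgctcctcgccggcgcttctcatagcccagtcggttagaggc
The capitals mark an NFY match in Kcnq1ot1 and in Crnde, a KLF/SP and an IRF match in Malat1, 3 KLF/SP matches in Dleu2 and the CTCF match in Snhg7os. A match is a stretch of letters and was not tested for binding.

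The members lay at the starts of 1118 noncoding genes, counting each gene with a start no farther than 1 kb from a member. Most of these genes are known only by a catalogue name: 658 have a Gm number, 283 a Rik name and 88 a clone accession, and 89 have another name. A single member was found at 873 genes, 2 at 188, 3 at 43, 4 at 12, 5 at 1 and 7 at 1, and 54 members lay near starts of more than 1 noncoding gene. Of the 8875 autosomal genes of the 3 types, 7349 have a start over 1 kb from any coding start, and 1076 of these had a shared peak there, which is 14.6% (95% exact binomial interval 13.8 to 15.5%, counting error only). Another 1336 (18.2%) had a peak in replicate 1 without an overlapping one in replicate 2, and 4937 (67.2%) had no replicate 1 peak, 3 of which had a peak in replicate 2. The share with a shared peak was 14.0% of 4867 lincRNA genes, 13.6% of 1967 antisense genes and 25.0% of 515 processed_transcript genes (21.4 to 29.0%), a class that includes several snoRNA hosts. For autosomal protein-coding genes, counted with any annotated start, the share was 59.2% of 20807.

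By their nearest start, 867 members (62.6%) belonged to lincRNA genes, 335 (24.2%) to antisense genes and 182 (13.2%) to processed_transcript genes. The deposited score, a whole number per peak whose scale is not stated, ran from 35 to 150 among members in replicate 1 and from 10 to 110 in replicate 2. The lowest, median and highest values are far apart in both lists: the middle 50% of members spanned 107 to 139 around a median of 126 in replicate 1, and 27 to 53 around a median of 38 in replicate 2. As places within each whole list, the medians were percentile 86.5 of replicate 1 and percentile 56.1 of replicate 2. Shared coding promoter peaks stood higher, at percentiles 92.9 and 78.4, and the other shared peaks lower, at percentiles 81.1 and 44.3. Members therefore sat between promoters and other sites in both lists, a description of sites and not of replicates. Replicate 1 peaks at noncoding starts without a replicate 2 partner had a median score of 66. Sharing belongs to the rule and rose with the replicate 1 score, from 3.77% of peaks at noncoding starts that scored up to 79 to 94.9% from 140. That median is therefore only a description. Scores in replicate 1 and replicate 2 followed each other with a Spearman rho of 0.77 across the 1384 members, against 0.90 across 19177 coding promoter peaks and 0.67 across 39811 others. These rhos are across sites, which share the libraries and are not replicates.

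**Figure D1:**
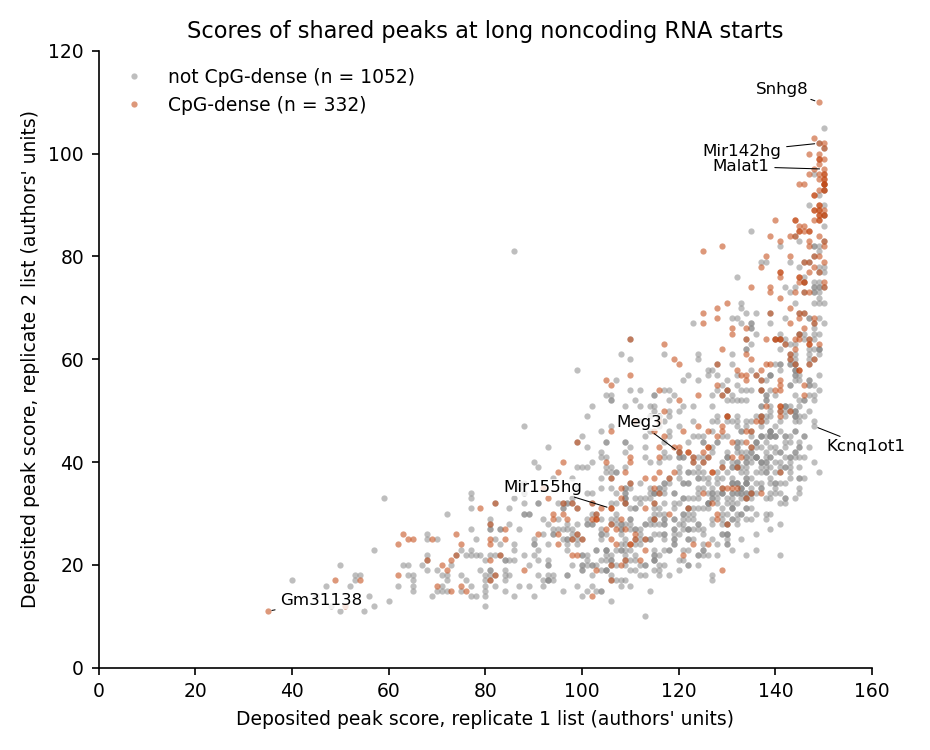
Deposited peak score of each of the 1384 members in the replicate 1 list (x axis) and of its strongest overlapping peak in the replicate 2 list (y axis), in the authors' units. CpG-dense windows (332) and the others (1052) are coloured apart; replicate 1 scores crowd toward their upper end at 150 while replicate 2 scores still spread there, up to 110 at Snhg8.

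The 10 members with the highest mean percentile were at 1700096K18Rik (150 in replicate 1 and 105 in replicate 2), Gm20732 (150 and 102), Snhg8 (149 and 110), 1700113A16Rik (150 and 101), 1700012D14Rik (150 and 101), 6720427I07Rik (150 and 99), Mir142hg (149 and 102), 5430416N02Rik (149 and 102), Malat1 (150 and 97) and 4930412M03Rik (149 and 100). Their values lie so close together in both lists that the order among them carries no weight. Snhg8 had the highest replicate 2 score of all members. Of the 10, Snhg8 hosts a snoRNA, Mir142hg carries a microRNA of blood cells and Malat1 makes an abundant RNA of nuclear speckles, while the other 7 have catalogue names. The 5 lowest were at 4930433N12Rik (50 and 11), Gm16835 (48 and 12), Gm49691 (45 and 14), Gm1976 (40 and 17) and Gm31138 (35 and 11).

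Although all members lie near a start, only some lie on it. The 150 bp window covered the nearest noncoding start in 352 members (25.4%), lay upstream of it in 582 (42.1%) and downstream in 450 (32.5%). Among shared coding promoter peaks, 8590 (44.8%) covered a coding start. With peak centres placed along the gene, 25.6% of members and 45.0% of coding promoter peaks fell within 75 bp of the start, and 16.9% and 16.8% fell 76 to 250 bp upstream. The outermost upstream stretch, 751 to 1075 bp before the start, held 8.60% of members and 3.70% of coding promoter peaks, and the outermost downstream one 9.18% and 4.72%. Members were thus spread more evenly over the 1 kb on either side. Members on the start had median scores of 131 and 41 in replicates 1 and 2, those upstream 126 and 38, and those downstream 120.5 and 34.

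**Figure D2:**
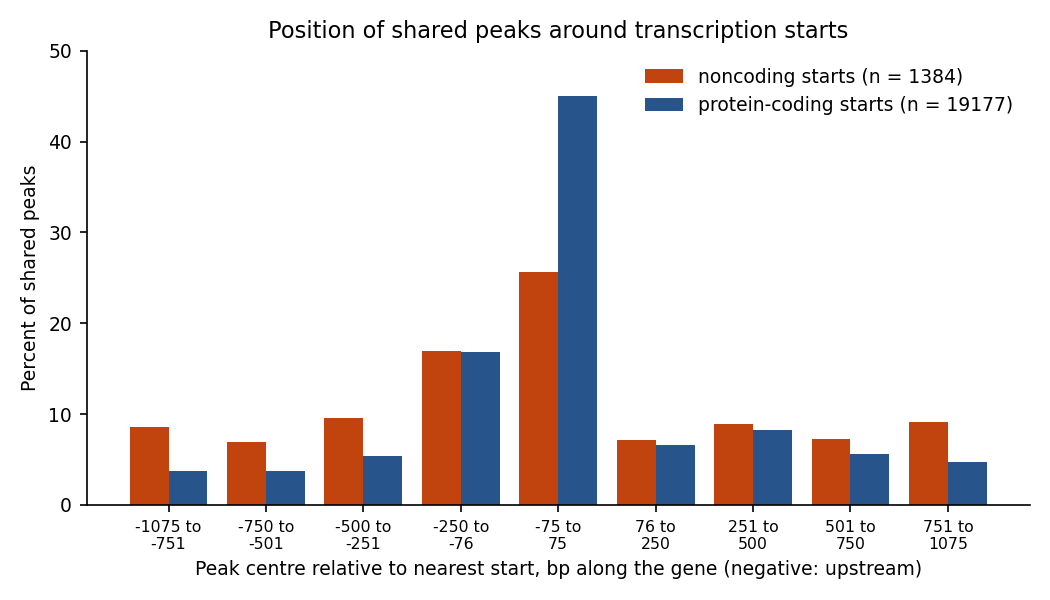
Percent of shared peaks (y axis) by the position of the peak centre relative to the nearest start, in bp along the gene (x axis, bins of unequal width), for 1384 members at noncoding starts and 19177 peaks at protein-coding starts. Both peak at the start, with 25.6% of members and 45.0% of coding promoter peaks in the central bin.

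The nearest protein-coding start was at a median of 21488 bp, with quartiles of 6859 and 54836 bp. It was 1 to 2.5 kb away for 151 members (10.9%), 2.5 to 5 kb for 128 (9.25%), 5 to 10 kb for 171 (12.4%), 10 to 50 kb for 545 (39.4%) and farther for 389 (28.1%). In the 279 members whose nearest coding start was within 5 kb, the noncoding gene and the coding gene were on opposite strands in 242 (86.7%), and in 135 (48.4%) they pointed away from each other. In the 1105 members farther from coding starts these counts were 624 (56.5%) and 330 (29.9%). A member lay inside the body of a protein-coding gene in 307 cases (22.2%): the noncoding gene ran against the coding gene in 288 and with it in 21, some members counting in both. The rule takes in the antisense type and leaves out types such as sense_intronic. These strand counts therefore follow in part from the annotation and say nothing about the members. The 3 members farthest from coding starts were at Gm13470, 1325821 bp from the nearest start, that of Zeb2 (scores of 124 and 34), at Gm20125, 726133 bp from Cited2 (142 and 51), and at Gm47710, 540017 bp from Nmbr (96 and 31). Zeb2 encodes a transcription factor of myeloid cells. The Gm47710 window held a CTCF match.

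On both sides of each distance limit the scores overlapped. The members nearest to the coding limit were at Gm12195, 1002 bp from a coding start (148 and 65), Gm29395 at 1004 bp (125 and 27) and Gm11725 at 1006 bp (121 and 56). Just inside that limit and so left out were peaks at Gm12043, 992 bp away (128 and 26), Gm16001, 992 bp (107 and 36) and Gm40190, 991 bp (139 and 86). The members farthest from their noncoding start were at 4931406G06Rik (107 and 38), Gm26519 (102 and 32) and 2310067P03Rik (124 and 31), and the first peaks past 1 kb were at Gm10501, 1003 bp away (74 and 27), Gm16174, 1003 bp (147 and 63) and Gm48133, 1004 bp (55 and 11).

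In CpG content members lay between the shared coding promoter peaks and the other shared peaks. CpG dinucleotides are rare in most of the mouse genome and stay frequent in CpG islands, which cover many promoters. A window was called CpG-dense with a GC content of at least 50% and a ratio of observed over expected CpG of at least 0.6. By this rule 332 members (24.0%) were CpG-dense, close to the 25.2% of all shared peaks. The share was 64.2% of coding promoter peaks and 6.53% of the other shared peaks. It was 9.39% of the replicate 1 peaks at noncoding starts without a partner, and as sharing belongs to the rule, this last share is only a description. The median ratio was 0.405 in members, 0.758 at coding promoters and 0.255 elsewhere, and the median GC content 54.0, 63.3 and 50.7%. For all shared peaks together these medians were 0.350 and 53.3%. No CpG at all was present in 78 members (5.64%), 2.03% of coding promoter peaks and 12.6% of the others.

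CpG density followed the position and the type of start. It was met by 36.1% of members on the start, 17.7% of those upstream and 22.7% of those downstream. By type it was met by 37.9% of processed_transcript members, 23.2% of lincRNA members and 18.5% of antisense members. Dense members scored a median of 130.5 and 51 in replicates 1 and 2, and the others 124 and 35. Of the 100 members ranked highest by mean percentile 71 were CpG-dense, then 32.3% of the next 300, 15.5% of ranks 401 to 1000 and 18.5% of the rest. The strongest members that were not dense were at 1700096K18Rik (ratio 0.527), 1700113A16Rik (0.547) and Mir142hg (0.276), so a high score also occurred without CpG density. The ratios at 1700096K18Rik and 1700113A16Rik were only a little under the limit of 0.6 and above the member median of 0.405.

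**Figure D3:**
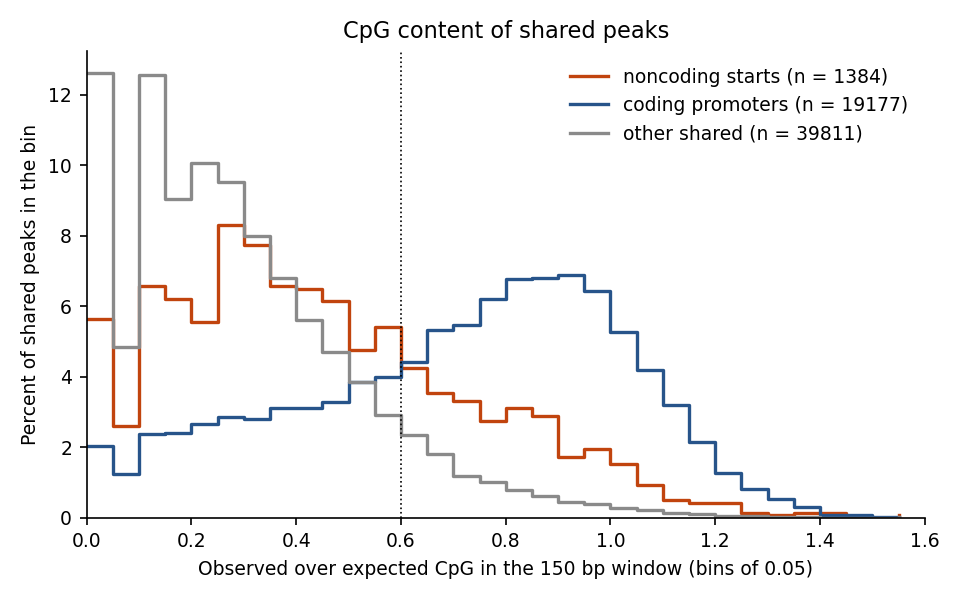
Distribution of the ratio of observed over expected CpG in 150 bp windows (x axis, bins of 0.05) as percent of each class (y axis) for 1384 members, 19177 coding promoter peaks and 39811 other shared peaks; the dotted line marks 0.6. Members lie between the other classes, with medians of 0.405, 0.758 and 0.255 for members, coding promoters and others.

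Motifs were searched as exact letters on both strands: PU.1-type ETS GAGGAAGT, generic ETS CCGGAAGT, RUNX TGTGGTT, C/EBP TTGCNNAA, AP-1 TGANTCA, KLF/SP GGGCGGG, NFY CCAATCA, NRF1 GCGCATGCG, YY1 AANATGGC, CRE TGACGTCA, E-box CAGCTG, HOX9/PBX TGATTTAT, GATA factor AGATAAG, IRF GAAANNGAA, REST TTCAGCACC and TATA box TATAAAA, and CTCF by its core consensus. The REST letters are only a part of the full REST site. Matches of different motifs shared bases in 7 members. No motif was found in 588 members, which says only that these letters are not in those windows. Of the motifs common at CpG-rich promoters, KLF/SP matched in 156 members (11.3%), 30.6% of coding promoter peaks and 4.17% of other shared peaks, and generic ETS in 29 members (2.10%), 4.36% and 0.816%. NFY matched in 67 members (4.84%), beside 5.91% and 1.94%, and CRE in 19 (1.37%), beside 1.95% and 0.445%. NRF1 matched in 7 (0.506%), beside 1.32% and 0.181%. Among all shared peaks KLF/SP matched in 12.7%, generic ETS in 1.97%, NFY in 3.27%, CRE in 0.944% and NRF1 in 0.552%. Only for NFY did members lie above that share by more than counting error (exact binomial interval 3.77 to 6.11%). For KLF/SP, generic ETS, CRE and NRF1 the share of all shared peaks lay inside the members' interval.

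Motifs of myeloid enhancers were more frequent in members than at coding promoters. PU.1-type ETS matched in 92 members (6.65%), 3.20% of coding promoter peaks and 7.57% of the others, and AP-1 in 114 (8.24%), 3.36% and 8.19%. C/EBP matched in 118 (8.53%), beside 5.83% and 12.8%, and RUNX in 80 (5.78%), beside 2.56% and 7.90%. Over all shared peaks the shares were 6.16% for PU.1-type ETS, 6.66% for AP-1, 10.5% for C/EBP and 6.15% for RUNX. For AP-1 members lay above the share of all shared peaks (exact binomial interval of members 6.84 to 9.81%, counting error only). For C/EBP they lay below it (7.11 to 10.1%). The shares of all shared peaks for PU.1-type ETS and RUNX lay inside the members' intervals, 5.39 to 8.09% and 4.61 to 7.14%. No direction is read for these motifs. Replicate 1 peaks at noncoding starts without a partner had 6.49% for PU.1-type ETS, 8.05% for AP-1, 10.0% for C/EBP and 6.49% for RUNX. CTCF matched in 84 members (6.07%), 1.95% of coding promoter peaks and 10.3% of the others, with 7.57% over all shared peaks. TATA, the letters of the classical core promoter element, matched in 25 members (1.81%), 0.714% and 1.34%. Not all motifs took a share between the other classes. YY1 matched in 1.88% of members, below 4.31% of coding promoter peaks and 2.63% of the others, and HOX9/PBX in 0.217%, beside 0.235% and 0.824%. GATA matched in 1.81%, beside 0.740% and 1.69%, and the partial REST site in 0.506%, beside 0.501% and 0.490%. Between the other classes lay E-box, which matched in 10.2%, beside 8.49% and 10.6%, and IRF, in 5.13%, beside 3.46% and 5.66%.

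**Figure D4:**
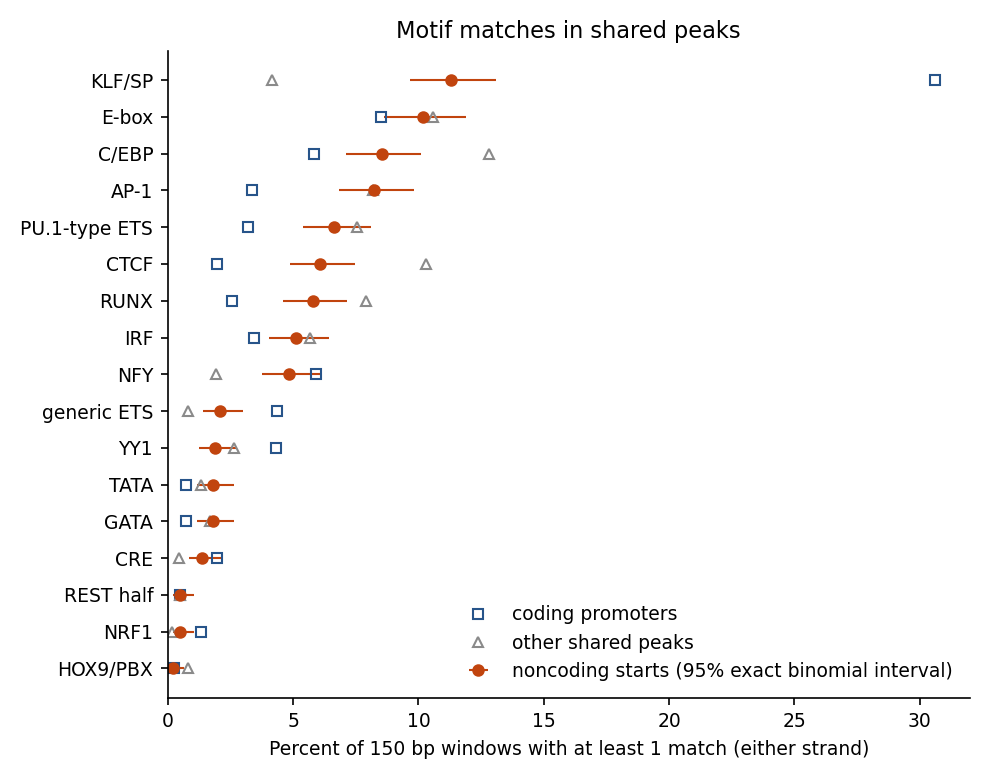
Percent of 150 bp windows with at least 1 match on either strand (x axis) for each of the 17 motifs, in members (circles, with 95% exact binomial intervals that cover counting error only), coding promoter peaks (squares) and other shared peaks (triangles). KLF/SP runs from 4.17% in other peaks through 11.3% in members to 30.6% at coding promoters, and CTCF in the opposite order, 10.3, 6.07 and 1.95%.

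The share of members with a match differed between CpG-dense and other windows for some motifs. KLF/SP matched in 26.2% of CpG-dense and 6.56% of the other members, whereas PU.1-type ETS matched in 2.71 and 7.89%, C/EBP in 2.71 and 10.4% and RUNX in 2.41 and 6.84%. CRE matched in 3.61 and 0.665% and generic ETS in 3.61 and 1.62%, while NFY matched in 4.52 and 4.94%. How often different motifs share a window was not counted over the members, but the Snhg8 window holds RUNX and KLF/SP letters and the Ptgs2os2 window C/EBP and NFY letters. CpG density and these letters are not independent, since GGGCGGG itself holds a CpG. On the start against off it, generic ETS matched in 4.55 and 1.26%, CRE in 3.12 and 0.775% and KLF/SP in 15.1 and 9.98%. NFY letters, which at many promoters lie shortly upstream of the start, gave 28 matches at 51 to 150 bp upstream (0.851 per kb of member sequence there), 10 within 50 bp of the start (0.300 per kb) and 12 beyond 250 bp upstream (0.235 per kb), with overlapping windows counted once. The corresponding densities for KLF/SP were 1.85, 1.44 and 0.470 per kb. At 1700012D14Rik and 5430416N02Rik, the strongest members with NFY letters, the scores were 150 and 101 and 149 and 102.

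Members with CTCF letters had median scores of 110.5 in replicate 1 and 42 in replicate 2, against 126 and 38 for all members. The match was more frequent off the start (7.07%) than on it (3.12%), and only 12 of the 84 were CpG-dense. By replicate 1 score the share was 4.82% below 80, 13.0% at 80 to 99, 10.1% at 100 to 119, 4.83% at 120 to 139 and 0.901% from 140. The share was lowest from 140 in the other peak classes too. It was 18.2% at 80 to 99, 4.74% at 120 to 139 and 0.873% from 140 in the other shared peaks, and 4.71, 2.32 and 0.314% at coding promoters. Among replicate 1 peaks at noncoding starts that scored 80 to 99, the letters were in 20 of 154 shared peaks (13.0%) and in 7 of 546 without a partner (1.28%). Sharing belongs to the rule, so this last pair is a description. The strongest CTCF members were at Snhg7os (147 and 82), Gm39228, 4075 bp from Mt1 (146 and 76), and 4632415L05Rik (146 and 73).

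Genes with a role known from the literature were followed in 7 lists with 98 genes in all, set beside the 14.6% of all coding-remote noncoding genes. The lists were drawn up with earlier results of these data known, so their counts describe the listed genes and support nothing further. Only genes with a start over 1 kb from coding starts are counted, and genes whose starts lie near a coding start are named apart.

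Host genes of snoRNAs, whose introns carry the guides that modify ribosomal RNA, had a member at 9 of 12 eligible genes. These were Snhg5 (150 and 94), Snhg6 (150 and 79), Snhg8 (149 and 110), Snhg12 (146 and 69 at the strongest of 3 members), Snhg15 (148 and 103), Snhg17 (143 and 61), Snhg20 (147 and 73), Epb41l4aos (146 and 75) and Dancr (148 and 80). All 9 scored at least 143 and 61, and each of these strongest windows was CpG-dense. Gas5 and Snhg1 had only a replicate 1 peak at starts remote from coding genes, with scores of 69 and 64, and Snhg14 had no peak. Yet at starts near coding genes Gas5 (146 and 90) and Snhg1 (150 and 99) had shared peaks. Among listed hosts whose starts all lie near coding starts, Snhg10 (150 and 101), Snhg9 (150 and 104) and Zfas1 (149 and 96) had shared peaks there, and Snhg18 had none. Snhg3, also of this kind, had a shared peak near the coding start (147 and 92) and a weaker member centred 1064 bp upstream (112 and 27). Rmrp (150 and 85), likewise near a coding start, was on the list although it encodes the RNA of the enzyme RNase MRP and hosts no snoRNA.

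Host genes of microRNAs had a member at 7 of 10 eligible genes (70.0%). The strongest was Mir142hg, which carries the blood cell microRNA miR-142, with a window over its start (149 and 102) and a downstream one (149 and 73) that held PU.1-type ETS and YY1 letters. Dleu2, the host of miR-15a and miR-16-1, had 4 members that scored 149 and 87, 148 and 89, 113 and 31, and 88 and 19, the second with NRF1 letters. Mir17hg, the host of the miR-17-92 cluster, scored 134 and 64. Mir155hg, which carries the inflammatory microRNA miR-155, scored lower, 106 and 31 and 103 and 29, on both sides of its start. Mir670hg scored 141 and 54. Hosts of microRNAs known from neurons also had members: Mir9-3hg (130 and 38, and 83 and 22) and Mir124a-1hg (71 and 20), whose strongest window was at the low end of the members. Mir124-2hg, Mir99ahg and Mirg had no peak. Mir22hg, whose starts all lie near coding starts, had a member centred 929 bp upstream (149 and 74).

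A mixed list of well-studied long noncoding RNAs, many of them broadly expressed, had a member at 12 of 13 eligible genes (92.3%). Neat1, the RNA that builds paraspeckles, had 3 members (150 and 93, 149 and 88, 117 and 35), the second with TATA letters, and its first window is also near the start of Frmd8os. Malat1, which lies beside Neat1, had 3 as well (150 and 97, 149 and 74, 146 and 85), of which the last covered a start. Crnde scored 150 and 88, Dubr 144 and 87 and Trp53cor1, the p53-induced lincRNA-p21, 141 and 65. Lncpint, another p53-induced transcript, had 4 members between 105 and 132 in replicate 1 and between 35 and 45 in replicate 2. Pvt1, a neighbour of Myc, had members at separate starts (141 and 39, 98 and 22), and 2900097C17Rik, the mouse Norad gene, had overlapping windows of 125 and 40 and 114 and 40. Kcnq1ot1 (148 and 47, 121 and 22), Mirt1 (143 and 73, 101 and 21), Mirt2 (144 and 49, 141 and 34) and Carmn (113 and 28), a gene known from smooth muscle and not broadly expressed, complete the list. Tug1 had only a replicate 1 peak of 57 at its remote starts, while near a coding start it had a shared peak of 150 and 101.

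Blood and immune genes had a member at 6 of 14 eligible genes (42.9%), 4 of which are Dleu2, Mir142hg, Mir155hg and Mir17hg from the microRNA hosts. The others were Gm14005, known as Morrbid, a regulator of the survival of short-lived myeloid cells, with 139 and 46 over its start, and Ptgs2os2, known as lincRNA-Cox2, an inflammatory gene upstream of Ptgs2, with 148 and 75. Hotairm1, Hoxaas3 and Lncenc1 had only a replicate 1 peak, with scores of 59, 67 and 80, and 5 had no peak at a remote start, among them Bvht, Gm28875 and Hoxaas2. The list is mixed, since Lncenc1, known from stem cells, is also on the list of other tissues, and Bvht is known from the heart. Hotairm1, a myeloid RNA of the Hoxa cluster, had a shared peak of 145 and 60 near a coding start, as did Ptgs2os (132 and 48) and Ttc39aos1 (132 and 43).

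In the Hox clusters 2 of 10 eligible genes had a member, Hoxd3os1 (127 and 58) and Halr1 (110 and 28). Of the rest 4 had a replicate 1 peak alone, among them Hotairm1, Hottip and Hoxa11os, and 4 had none, among them Hotair, Hoxaas2 and Hoxb3os. Hoxa11os also had a shared peak near a coding start (145 and 54). Imprinted genes, which are expressed from 1 parental allele, had a member at 2 of 9 (22.2%), Kcnq1ot1 and Meg3 (120 and 42). Airn and Nespas had a replicate 1 peak alone, and 5 had none, among them H19, Mirg and Nctc1. Genes known from other tissues or from stem cells had a member at 3 of 19 (15.8%): Hand2os1, a heart gene, with overlapping windows of 109 and 38 and 95 and 38, Meg3, and Platr10 (100 and 14). Of the rest 8 had a replicate 1 peak alone, among them Dlx6os1, Evx1os and Fendrr, and 8 had none, among them Dnm3os, H19 and Pantr1. Fendrr had a shared peak near a coding start (83 and 25).

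**Figure D5:**
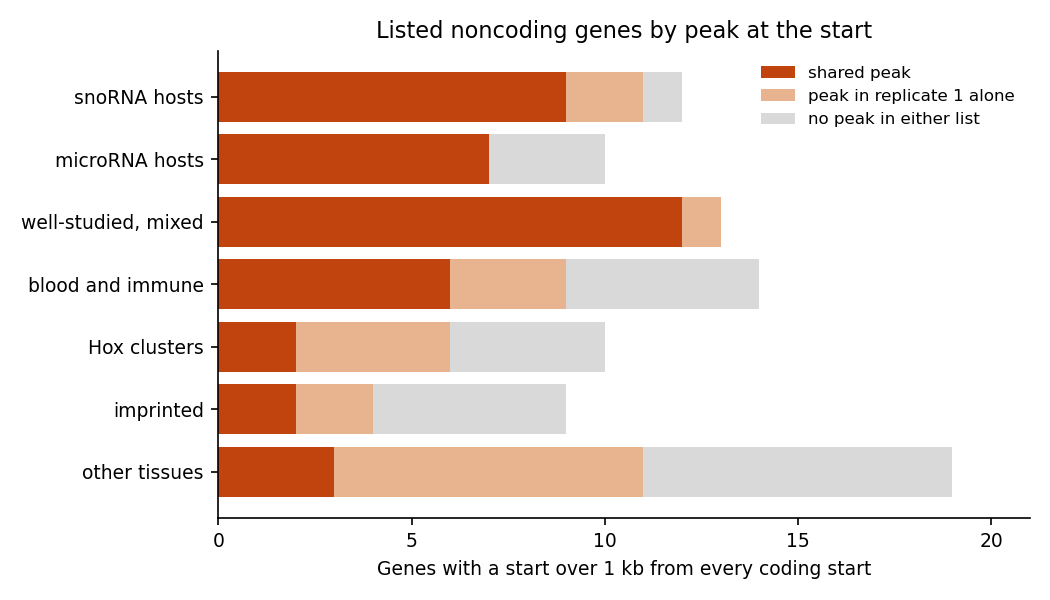
Number of listed noncoding genes with a start over 1 kb from every coding start (x axis) in each of the 7 lists (y axis), split by whether that start had a shared peak, a peak in replicate 1 alone or no peak in either list. Shared peaks were at 12 of 13 well-studied genes and 9 of 12 snoRNA hosts, and at 3 of 19 genes of other tissues. The last share, 15.8%, is close to the 14.6% of all coding-remote noncoding genes.

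Coding promoters of genes known from myeloid and other cell types were looked up as well. All 16 myeloid genes examined had a shared promoter peak, among them Spi1, which encodes PU.1 (150 and 94), Cebpa (148 and 97), Csf1r (124 and 44), Itgam (140 and 40) and Mpo (126 and 41). Of all autosomal protein-coding genes 59.2% had such a peak, and shared coding promoter peaks had median scores of 139 and 56. The count therefore describes these genes and is no test of the labelled cell type. Among autosomal markers of other cell types, Cd3e, Alb, Myod1 and Neurod1 had none. Some of these genes were the nearest coding gene of a member, often at a long distance. Ptprc, the leukocyte antigen CD45, was nearest to Gm28556 at 16368 bp (148 and 48) and to Gm4258 at 216869 bp (141 and 48). Gm26692, 36238 bp from Gfi1, scored 147 and 59. Gm26626, 82730 bp from Runx1, scored 134 and 33 and held C/EBP and E-box letters. 2610028E06Rik, 102585 bp from Csf3r, scored 54 and 17. Neurod1, a neuronal gene, was nearest to Gm26755 at 2366 bp (126 and 46, with KLF/SP letters). These neighbours were picked by coding gene and say nothing about which gene a site serves.

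The genes with most members were partly genes whose sequence occurs elsewhere in the genome. Stretches of 31 bases that occur more than once on the mm10 chromosomes were found in 171 members (12.4%), in 5.68% of coding promoter peaks and in 12.5% of other shared peaks. Of members at genes with a single member 6.93% held such a stretch, and of the 44 members at the 10 genes with 4 or more 61.4% did, a gene being here the nearest one. In 16 members at least 50% of the stretches were repeated. Those 16 lay in replicate 1 hotspots, the authors' wider enriched regions, with a median width of 119 bp, against 957 bp for members without repeated stretches. Reads from near-identical copies may be dropped or misplaced, and no source used here states how they were handled, so the number and scores of these members are uncertain.

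CR974462.6, a lincRNA in the major histocompatibility region near H2-K1, had 7 members. Upstream, 3 windows with replicate 1 scores of 137, 146 and 138 shared a replicate 2 score of 79, and 1 scored 136 and 49. Downstream, 3 windows scored 77, 86 and 59 and shared a replicate 2 score of 33. E330020D12Rik had 5 members with scores of 136 and 48, 134 and 64, 140 and 64, 133 and 33, and 146 and 52. Of the 12 genes with 4, the first by name were 9330159M07Rik, 9430037G07Rik and 9430091E24Rik, where windows overlap and repeat replicate 2 scores, as at 9430037G07Rik (139 and 69, 125 and 69, 79 and 19, 70 and 19). Repeated stretches reached 61.7% of a window at 9330159M07Rik, 55.8% at 9430037G07Rik, 59.2% at 9430091E24Rik, 45.8% at E330020D12Rik and 41.7% at CR974462.6. Gm1976, Gm31138 and 4930433N12Rik, among the lowest members, had 50.8, 43.3 and 41.7%. Hand2os1, counted above among the genes of other tissues, had 19.2 and 33.3% in its windows with replicate 1 scores of 109 and 95. In all, 28 members overlapped the one before them, which leaves 1356 after merging, with 1354 distinct strongest partners in replicate 2.

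All 1384 members lay in a replicate 1 hotspot, as did 100% of all shared peaks, and 1381 (99.8%) lay in a replicate 2 hotspot, as did 99.7% of all shared peaks. The deposited −log10 q of the hotspot was at its ceiling of 100 for 98.6% of members in replicate 1 and 46.9% in replicate 2, close to the 98.7% and 47.2% of all shared peaks. Hotspots around members had a median width of 888 bp in replicate 1 and 275 bp in replicate 2, those around all shared peaks 798 and 267 bp.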

How the data were processed

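Chromatin accessibility was measured by DNase-seq in 4 libraries of mouse AML cells, 2 per biological replicate. The authors deposited 1 peak list and 1 hotspot list per replicate, both on mm10 per the labels, and the samples' own text notes assign each list to a replicate. The deposited peak score is a whole number per 150 bp window, with ranges of 1 to 150 (replicate 1) and 2 to 148 (replicate 2), and the deposited hotspot value is a −log10 q with a ceiling of 100. Not given in the sources used here were the caller, its settings, the read depth and the scale of the score, so a score was used only within its own list. Identical windows, 48 and 5, were kept once.

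From these lists, members and classes were found with Python 3.11.15, pandas 2.3.3 and NumPy 2.4.6. Distances run from the nearest base of the window to the nearest transcript start in GENCODE M21, and a member carries the score of its strongest replicate 2 partner. Sequences were read from GRCm38.p6 with pysam 0.24.0 and SAMtools 1.23.1, and 31-base stretches were counted on either strand of its 21 chromosomes. Intervals are 95% Clopper-Pearson binomial intervals (SciPy 1.17.1) and cover counting of sites only. With 1 list per replicate no test between groups was made.

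The members and lists were chosen with earlier results of these data known. Named genes are all listed genes with a member, up to 3 per list and reason among those without, the 10 strongest and 5 weakest members by mean score percentile, the 5 genes with most members and the 3 members farthest from coding starts. Other names, such as those near the distance limits, nearest to myeloid genes, with a given motif or with shared peaks near coding starts, were picked after their values were seen. The remaining listed genes are of another gene type, on a sex chromosome or not annotated under the name used. Alternatives were other overlaps, score limits, list lengths, distances, start definitions, gene types, single lists, CpG limits and a 100 bp motif window. Of the coding marker genes, some are not reported here. The code was tested on simulated data.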

Additional observations from a re-analysis of the deposited data

How the results depend on the processing

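No paired analysis was possible because each biological replicate has 1 pooled list and no result comes from a test. Over 14 alternatives, of which 1 (the strongest member of each gene) was chosen after seeing the data, 37 values stayed within 1.5 times the count or inside the 95% interval of the reported value and 23 moved. Keeping only peaks at or above the median score of their list gave 783 members at 683 genes, 8.94% of coding-remote genes, 30.0% CpG-dense members and 7.54% with CTCF letters. Widening the distance to noncoding starts to 2.5 kb gave 2374 members at 1809 genes, and narrowing it to 500 bp gave 11.5% of genes and 27.5% CpG-dense members. With gene starts alone the share of genes was 13.5%. LincRNA genes alone gave 883 members at 695 genes, and antisense genes alone gave 339 members at 286 genes, 13.6% of genes and 19.5% CpG-dense members. A CpG ratio of at least 0.75 with a GC content of at least 55% left 12.6% CpG-dense. Using 1 list without the other, either replicate left out, members ranged from 1516 to 4514, genes from 1135 to 2603, the share of genes from 14.9 to 32.8%, CpG-dense members from 13.9 to 25.8%, CTCF letters from 2.33 to 6.07% and generic ETS letters from 1.35 to 2.11%. The high counts and low motif shares come from the longer replicate 1 list alone. Counts follow from how many peaks, starts or genes an alternative admits; for the motif and CpG shares the cause was not tested. With the strongest member of each gene the shares were 23.2% CpG-dense, 6.86% with CTCF and 2.38% with generic ETS letters. The unknown depth and the unequal list lengths limit what the absence of a shared peak can show, and 1 list per replicate gives no error for any score.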

Other observations

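Members were found on all autosomes, as 1.77 to 3.46% of the shared peaks of each. Chromosome 13 had 99 members, 3.46% of its shared peaks, and chromosome 17 had 98, 3.35% of its shared peaks, while chromosome 2 had 86, 1.81% of its shared peaks, and chromosome 15 had 46, 1.77%. The share of coding-remote noncoding genes with a shared peak was highest on chromosome 17, with 69 of 320 genes (21.6%), followed by chromosome 19 with 38 of 195 (19.5%) and chromosome 11 with 69 of 357 (19.3%). Chromosome 13 combined many members with an average share of genes, 73 of 517 (14.1%).

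A soft-masked repeat covered at least 50% of the window in 58 members (4.19%), in 1.71% of coding promoter peaks and in 8.18% of the other shared peaks. In this too the members lay between the other classes.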
